A study of Mus musculus with 2 samples.

Results

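Pancreatic tumour cells with high levels of both Epcam, an epithelial adhesion molecule, and Vim, the intermediate filament protein of mesenchymal cells, made up 674 of the 5092 cells kept from the CD9hi library, or 13.2% (95% exact Clopper-Pearson interval 12.3 to 14.2%). They were 674 of 7642 kept cells in the series. Cells were selected on measured levels: a cell was called double-positive when it had at least 1500 CPM (UMIs of a gene per 1000000 UMIs of the cell) of Epcam and of Vim and at least 1000 CPM of the nuclear RNA Malat1. It also had to hold under 2000 CPM summed over Mrpl13, Derl1 and Ndufb9 and under 200 CPM summed over Krt17 and Gabrp. These 8 genes chose the cells, so their levels are descriptions and support nothing. The reference groups in the same library were 3157 cells with Epcam under 1000 CPM and Vim of at least 1500 CPM, called Epcam-low here, and 382 cells with Epcam of at least 1500 CPM and Vim under 1000 CPM that met the 3 further limits, called Vim-low.

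The cells came from pancreatic ductal adenocarcinomas of KPFRR mice, whose genotype includes a Pdx1-Flp transgene, the allele Trp53frt/frt and, at the Rosa26 locus, Rosa26FSF-creER together with Rosa26mTmG. In these mice Flp recombinase under the Pdx1 promoter deletes Trp53 in pancreatic cells, which also gain a CreER allele and carry a membrane Tomato to membrane GFP reporter. Both groups of the series, whole tumour and CD9hi sorted, shared this genotype and came as 1 droplet library of transcript 3′ ends each, from live cells sorted on GFP or on CD9. The age and number of animals, and whether animals were pooled, were not given in the sources used here. With 1 library per group no test was possible, no p-value is given, and every interval covers counting error only.

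In the epithelial-mesenchymal transition (EMT), cells joined by E-cadherin, claudins and desmosomes loosen these contacts and take on vimentin, fibronectin and other mesenchymal proteins, under transcription factors of the Snail, Zeb, Twist and Prrx families. Zeb and Snail proteins bind E-box sequences in epithelial promoters and repress them, while Grhl2, Ovol and Esrp proteins keep epithelial transcription and splicing. Carcinoma cells can stop in between, in a hybrid state with both sets of genes, and the Notch ligand Jag1 and the tetraspanin CD9 have been tied to this state and to tumour initiation in the pancreas.

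The CD9hi library held 5500 barcodes with 120451299 UMIs and the whole-tumour library 3082 barcodes with 48287984 UMIs. They shared 2 cell barcodes, 1 of them among the double-positive cells. Double-positive cells had a median of 21259 UMIs and 4616 genes, Epcam-low cells 23050.0 UMIs and 4589 genes, and Vim-low cells 19646 UMIs and 4526 genes. Scrublet doublet scores had medians of 0.0536, 0.0372 and 0.0298 in the same order, and the highest-scoring 4.07% of barcodes included 50 double-positive (7.42%), 111 Epcam-low (3.52%) and 1 Vim-low cell (0.262%). The added GFP and TdTomato features gave 0 UMIs in the double-positive cells, under the floor of 3 counts, so they do not check the labels.

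Among cells with high Epcam, high Vim had a larger share in the CD9hi library. In the CD9hi library 1290 cells reached the Epcam minimum and 738 of them (57.2%) also reached the Vim minimum. The whole-tumour library had 1386 such cells, of which 186 (13.4%) reached the Vim minimum. The 3 further limits then took out 4, 2 and 58 CD9hi cells, in the order Malat1, the Mrpl13 group and the Krt17 pair. The same rule left 144 double-positive cells in the whole tumour, 5.65% of 2550 (4.78 to 6.61%). With 1 library of each kind, the sort and the library cannot be told apart.

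**Figure D1:**
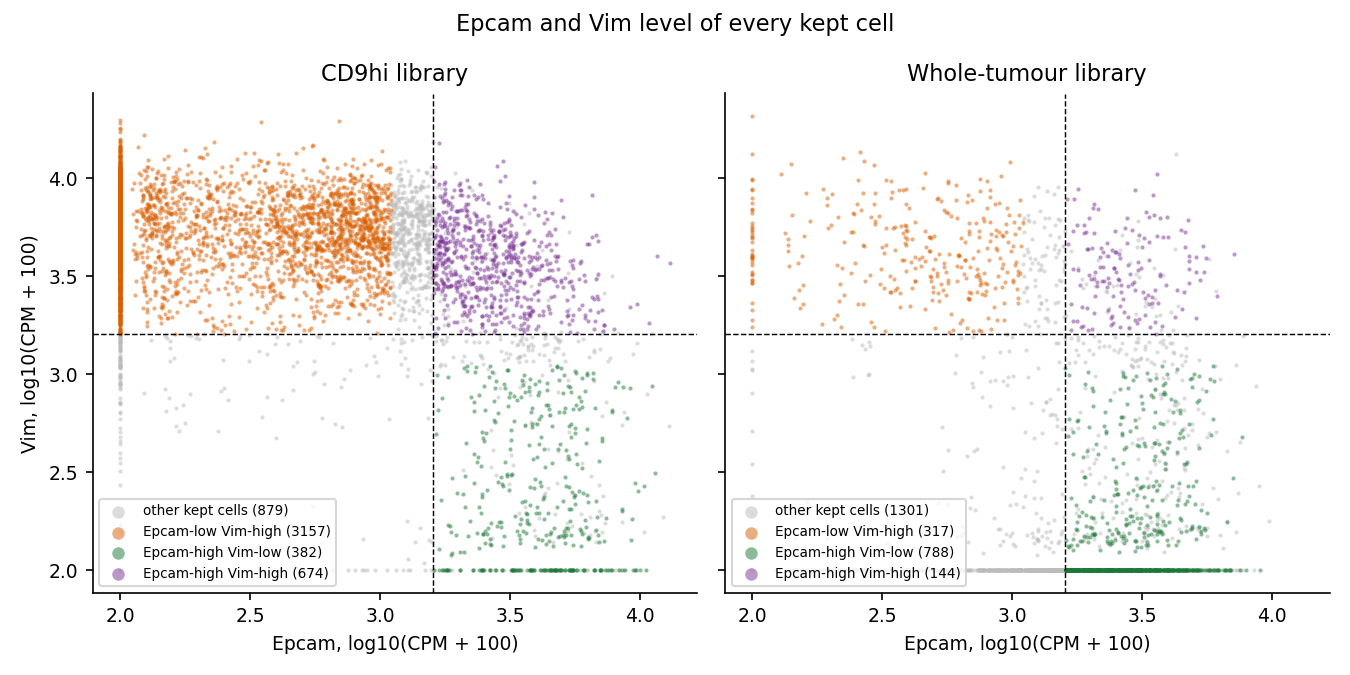
Each point is a kept cell, with Epcam on the horizontal and Vim on the vertical axis, both as log10 of CPM plus 100; dashed lines mark 1500 CPM and colours the groups, with grey for cells in none. Double-positive cells (674 in the CD9hi and 144 in the whole-tumour library) form the upper right field, which in the CD9hi library runs without a gap into the Epcam-low cells.

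Cells just inside the Epcam limit (1500 to 1700 CPM, 108 cells) had Cdh1 at 180.0 CPM and Krt19 at 306 CPM, and the 138 cells just outside it (1300 to 1500 CPM) had 180.4 and 301 CPM. Lama3 was at 72.1 CPM just inside and 43.8 CPM just outside it, and Jag1 at 162 and 207 CPM. Summed Epcam was 2840.4 CPM in double-positive, 236 in Epcam-low and 4141 in Vim-low cells, and Vim was 3959.9, 5798 and 259 CPM. The 10th percentile, median and 90th percentile over double-positive cells were 1629.8, 2477 and 4617 CPM for Epcam and 1911, 3607 and 6505 CPM for Vim. Of the 4 other genes proposed as marks of these cells, 3 did not set them apart from Vim-low cells. Lama3, the α3 chain of laminin-332, was at 159.9, 7.56 and 282 CPM in double-positive, Epcam-low and Vim-low cells, and the calcium-binding protein gene S100a14 at 118, 6.42 and 449 CPM. The intestinal surface antigen gene Gpa33 was at 18.4, 0.52 and 91.2 CPM. All 3 were thus highest in Vim-low cells. Mab21l4 was the one of the 6 marks at least 1.5-fold above both references, at 414, 122 and 240.2 CPM.

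Measured genes were those with a mean of at least 5 CPM over the 2 groups compared, and a gene was called at a 1.5-fold difference, a log2 ratio of 0.58. Against Epcam-low cells, 1131 of 9313 genes were called higher (12.1%) and 851 lower (9.14%) in double-positive cells, around a median log2 ratio of 0.09. Against Vim-low cells, 361 of 9423 were higher (3.83%) and 713 lower (7.57%), around a median of -0.02. These shares are the background for the list counts of this library below, and a list near them says nothing particular about its genes. A gene low in one group can pass the minimum only through the other group, where it is high, and its direction is then fixed by the filter, so the counts and medians of lists below are descriptions of the genes measured. The Epcam-low group was not held to the 3 further limits and contained 561 cells with low Malat1, 215 with a high Mrpl13 group and 22 with high Krt17 and Gabrp. Against the 2416 Epcam-low cells that met them, 647 genes were higher and 869 lower, and under trimmed mean scaling, which lowered each log2 ratio by 0.09, 896 were higher and 1062 lower. The higher genes were thus 57.1% of called genes in the main comparison, 42.7% under the same limits and 45.8% under trimmed mean scaling.

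Summed UMIs of both programmes were also found under single barcodes, with doublets kept. Each cell was thinned to 5000 UMIs, which left out 4 double-positive, 61 Epcam-low and 10 Vim-low cells, and its UMIs were counted over 69 epithelial and 28 mesenchymal genes other than those that chose the cells. The median double-positive cell had 72.0 epithelial and 35.0 mesenchymal UMIs, against 25 and 52.0 in Epcam-low and 95.5 and 21.0 in Vim-low cells. Above both the epithelial median of Epcam-low cells and the mesenchymal median of Vim-low cells stood 591 of 670 double-positive cells, or 88.2% (85.5 to 90.6%). Each reference group passes its own median in about 50% of its cells by construction, and 44.4% of Epcam-low and 47.8% of Vim-low cells passed both. In the whole-tumour library the same share was 127 of 136 double-positive cells, or 93.4% (87.8 to 96.9%). Both counts are weighted to abundant genes. In double-positive cells of the CD9hi library keratins summed to 11329 CPM, adhesion genes to 3890, tight junction genes to 1758 and polarity genes to 1324 CPM. These sums include the genes that chose the cells. Fn1, abundant in all groups as given below, is in the mesenchymal count. The share thus does not show how many genes of each programme a cell held.

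**Figure D2:**
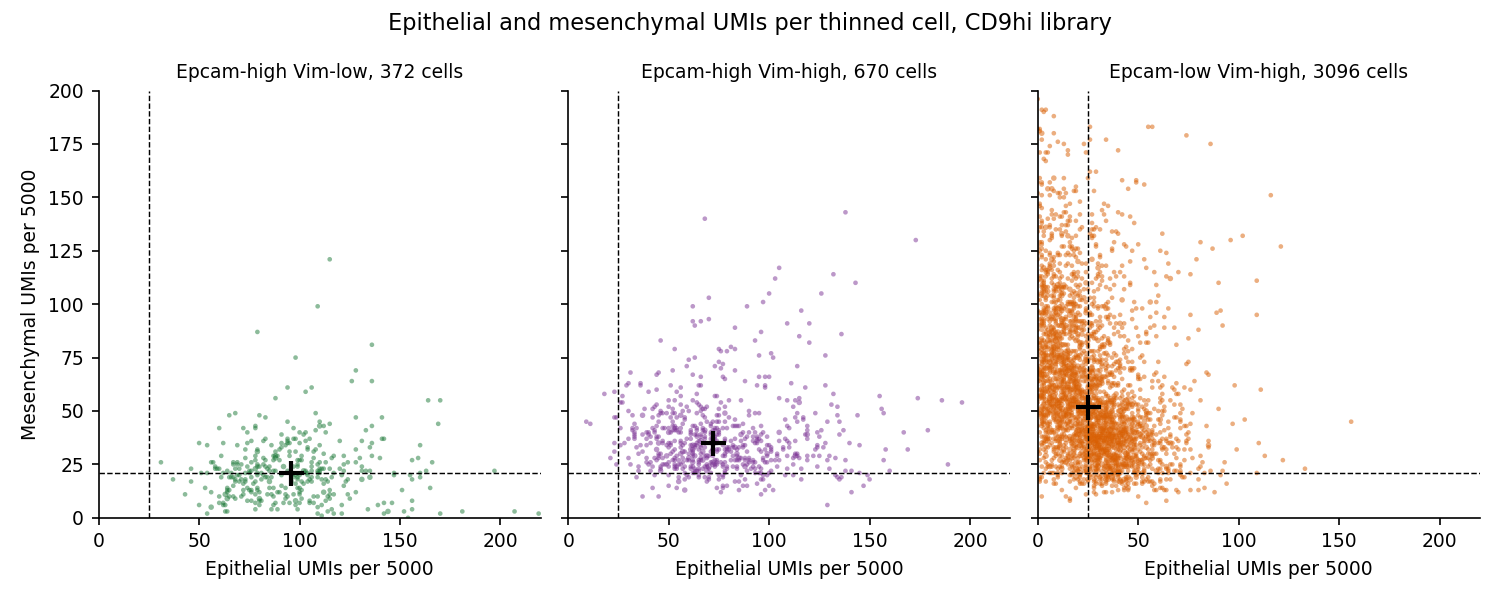
Each point is a pair of values found in 1 or more cells of the CD9hi library after thinning to 5000 UMIs, in 1 panel per group, with epithelial UMIs on the horizontal and mesenchymal UMIs on the vertical axis; crosses are group medians, dashed lines mark 25 epithelial UMIs (the Epcam-low median) and 21 mesenchymal UMIs (the Vim-low median), and 14 cells lie beyond the axes. In the middle panel most double-positive cells (88.2%) lie above both lines.

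Cell contact genes were higher as a group than in Epcam-low cells. Of 10 measured adhesion genes, 9 were higher and 0 lower (median log2 ratio 1.31), with the background above of 12.1% higher among all genes. Of the 10, 2 were under the minimum in Epcam-low cells and so counted only through the double-positive cells. Cdh1, which encodes E-cadherin, was at 239 CPM (231 to 247) in double-positive, 60.9 CPM (59.2 to 62.6) in Epcam-low and 322 CPM (309 to 334) in Vim-low cells. That was 3.93-fold above Epcam-low cells, and Cdh1 did not reach a 1.5-fold difference from Vim-low cells (log2 ratio -0.43). The desmosome and junction plaque genes Jup (225 against 119 CPM), Pkp3 (32.3 against 5 CPM) and Dsg2 (87.7 against 24.3 CPM) were also higher. Nectin1 was the adhesion gene not called (8.76 against 8.65 CPM). Under the same 3 limits 8 of the 10 were higher.

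Of 15 measured tight junction genes, 12 were higher and 0 lower than in Epcam-low cells (median 1.70; 11 higher and 1 lower under the same limits). Of the 15, 4 were under the minimum in Epcam-low cells and so counted only through the double-positive cells. Claudins, the strands that seal the junction, led the higher genes. Cldn7 was at 201, 15.4 and 559 CPM in double-positive, Epcam-low and Vim-low cells, a log2 ratio of 3.70 (3.61 to 3.80) over Epcam-low cells. Cldn4 was at 529.6, 64.7 and 768 CPM and Cldn6 at 190.2, 27.9 and 285 CPM in the same order. Cldn18, the claudin of gastric epithelium, did not reach 1.5-fold, at 41.1, 51.6 and 73.3 CPM, and the scaffold gene Tjp1 was at 39.2 against 34.9 CPM. Against Vim-low cells 10 of 17 measured tight junction genes were lower and 0 higher.

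All 17 measured polarity and trafficking genes were higher than in Epcam-low cells (median 1.87; 16 under the same limits), and 17 of 21 were lower than in Vim-low cells. Of the 17, 10 were under the minimum in Epcam-low cells and so counted only through the double-positive cells. Rab25, a small GTPase of apical recycling, was at 18.2, 0.495 and 142 CPM in double-positive, Epcam-low and Vim-low cells. Spint1, an inhibitor of membrane serine proteases, was at 69.7, 21.9 and 116 CPM, and Myo5b, the motor of the same recycling route, at 21.9, 8.17 and 27.2 CPM. These 3 genes all lay between the references, Rab25 far under its Vim-low level and Myo5b close to it. All 7 measured keratin genes were higher as well (median 1.74, and 6 under the same limits), and 1 of the 7 was under the minimum in Epcam-low cells. Krt7 was at 2341, 272 and 3206 CPM and Krt19 at 679, 119.5 and 1559 CPM, both ductal keratins, while the simple-epithelium pair differed less: Krt8 was at 3123, 1246 and 3341 CPM and Krt18 at 5041, 2321 and 5181 CPM.

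The 15 genes with the highest ratio over Epcam-low cells at a mean of at least 50 CPM were Lama3, S100a14, Cldn7, Krt7, Cldn4, Cldn6, Lamb3, Krt19, Serpinb5, Prss22, Cldn3, Wfdc2, Krtcap3, Ctsh and Fermt1. Their log2 ratios ran from 4.40 for Lama3 to 1.99 for Fermt1, which encodes kindlin-1, an integrin activator. Fermt1 was the one gene of the 15 with a level above that in Vim-low cells (256 against 234 CPM). The promoters of the 15 genes were searched for the E-box CACCTG, the sequence known to be bound by Zeb and Snail factors. CAGGTG, the same site read on the other strand, was also counted. RefSeq promoter windows of the build GRCm38.p6 were at hand for 10 of the 15, and 8 of them (80.0%) held a match in the 250 bases before a start. Among all 27025 genes with a window 19.4% held one, as did 1 of 11 of the 15 lowest genes (9.09%). Over all called genes with a window the share was 29.5% of 844 higher and 17.6% of 638 lower genes, against 17.4% of 7329 measured genes. The 15 highest and 15 lowest genes were picked as the extremes of these same data, so their shares are descriptions. A match is a sequence description and does not show binding. Control of these genes by Zeb or Snail factors was not tested. The matches are shown with up to 25 bases on either side, 5′ to 3′ on the strand of the gene, with the E-box in capitals. Epcam, which chose the cells, is added for comparison. Cdh1, Jag1 and Vim were looked up in the same way and gave no match to show, for lack of either an E-box or a window.
Cldn7, chr11:69965299-69965354 (+): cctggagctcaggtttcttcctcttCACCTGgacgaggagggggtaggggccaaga
Cldn7, chr11:69965339-69965394 (+): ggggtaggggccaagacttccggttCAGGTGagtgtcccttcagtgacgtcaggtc
Krt7, chr15:101412334-101412389 (+): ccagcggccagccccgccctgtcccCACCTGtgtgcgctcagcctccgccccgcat
Cldn4, chr5:134946935-134946973 (-): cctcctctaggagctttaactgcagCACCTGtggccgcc
Cldn6, chr17:23679247-23679302 (+): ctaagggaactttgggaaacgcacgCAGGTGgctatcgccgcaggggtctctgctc
Lamb3, chr1:193302212-193302242 (+): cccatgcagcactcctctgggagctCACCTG
Serpinb5, chr1:106861127-106861174 (+): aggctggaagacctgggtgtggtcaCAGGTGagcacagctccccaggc
Wfdc2, chr2:164562540-164562595 (+): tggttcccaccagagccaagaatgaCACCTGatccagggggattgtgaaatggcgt
Krtcap3, chr5:31251657-31251705 (+): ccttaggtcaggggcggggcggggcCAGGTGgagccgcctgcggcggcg
Epcam, chr17:87635767-87635822 (+): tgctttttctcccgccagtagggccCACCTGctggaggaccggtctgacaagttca
Epcam, chr17:87635935-87635978 (+): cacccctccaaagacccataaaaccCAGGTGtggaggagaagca

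Epithelial transcription and splicing factors followed the contact genes less closely. Of 13 measured genes 7 were higher and 0 lower than in Epcam-low cells (median 0.89), and against cells under the same limits 6 of 14 were higher and 2 lower (median 0.44). Esrp1, which sets epithelial splicing, was at 22, 3.64 and 40.1 CPM in double-positive, Epcam-low and Vim-low cells, and the ETS factor Elf3 at 18.1, 4.29 and 83.7 CPM. Klf4, a factor of epithelial differentiation, was highest in Epcam-low cells, at 305, 415 and 229 CPM. Grhl2, a keeper of epithelial identity, was low throughout, at 2.92, 0.418 and 10.5 CPM. The ductal progenitor factor Sox9 was highest in double-positive cells, at 572, 488 and 330.3 CPM, a 1.73-fold difference from Vim-low cells only. The pancreatic lineage factors Pdx1 (14.7, 14 and 22.4 CPM) and Gata6 (15.7, 19.5 and 24.4 CPM) did not reach 1.5-fold over Epcam-low cells in either direction.

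Lama3 and Lamb3, chains of laminin-332, the basement membrane laminin that anchors epithelia, were higher than in Epcam-low cells. Lama3, the lead gene above, was 21.1-fold higher than in Epcam-low cells (log2 4.40, 4.27 to 4.54). Lamb3 was at 216, 37.8 and 269 CPM in double-positive, Epcam-low and Vim-low cells, 5.72-fold above Epcam-low cells. Of the receptors, Itgb4 (168 against 79.9 CPM) and Itga3 (198 against 95.1 CPM) were higher than in Epcam-low cells, and Itga6 was not called (239.6 against 212 CPM). Itgb5, a subunit of vitronectin receptors, was lower (40.8 against 76.4 CPM). Over the whole list of 17 measured laminin chains and integrins, 6 stood above and 1 below Epcam-low cells by 1.5-fold, also under the same limits, and against Vim-low cells 3 of 18 were higher and 2 lower.

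The mesenchymal genes of double-positive cells were a selected set. Against Vim-low cells 12 of 14 measured mesenchymal genes were higher and 0 lower (median 1.08), yet against Epcam-low cells 22 of 26 were lower and 0 higher (median -2.40). Of the 26, 10 were under the minimum in double-positive cells and counted only through the Epcam-low cells. Vim itself chose the cells and is not counted. The second median depended on the Epcam-low cells compared, and both alternatives were chosen after seeing the data: without cells holding a Prrx1 UMI it was -1.41, with 17 of 22 lower and 0 higher, and without cells rich in markers of other cell types it was -1.17, with 17 of 21 lower and 1 higher. Kept at or near the level of Epcam-low cells were Fn1, encoding fibronectin (3279.9, 2226 and 1884 CPM in double-positive, Epcam-low and Vim-low cells), N-cadherin's Cdh2 (46.8, 63.6 and 22.7 CPM) and tenascin C's Tnc (291, 361 and 84 CPM). None of these 3 reached 1.5-fold from Epcam-low cells, and all 3 were over 1.5-fold above Vim-low cells. Near absent were the fibrillar collagens and contractile genes. Col1a1 was at 1.99, 62 and 2.92 CPM, Col3a1 at 0.265, 55.5 and 0.508 CPM and Tagln at 0.664, 79.4 and 2.16 CPM. Over Epcam-low cells the 13 fibroblast markers, Col1a1 and Col3a1 among them, had a median of 0 and a 90th percentile of 380 CPM. Most Epcam-low cells thus held little of these collagens either, and 4.88% of them passed 1000 CPM of the markers. Between the kept and the near absent genes lay the matricellular Sparc (32.9, 443 and 11.7 CPM) and the calcium-binding S100a4 (38.5, 307 and 20.7 CPM). Sparc led the 15 lowest genes, with a log2 ratio of -3.75 (-3.88 to -3.62) over Epcam-low cells, and was followed by Pcolce (-3.22), a procollagen protease enhancer, Prdx4 (-3.00) and S100a4 (-3.00).

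Of 11 measured EMT transcription factors, 1 was higher and 3 lower than in Epcam-low cells (median -0.08), and 2 of 9 were higher and 0 lower than in Vim-low cells. Zeb1 was highest in double-positive cells, at 54.5 CPM (50.8 to 58.3), against 31.6 CPM (30.4 to 32.9) in Epcam-low and 23.2 CPM (20 to 26.9) in Vim-low cells. Its log2 ratio over Epcam-low cells was 0.79 and went under the limit of 0.58 when those cells met the same limits (0.53). The list's median was 0.07 without cells holding a Prrx1 UMI, a change of sign. Zeb2 was at 72.2, 69.6 and 38 CPM, level with Epcam-low cells. Twist1 was lower than in Epcam-low cells (55, 114 and 38.9 CPM), and so was Snai1 (7.83, 13 and 6.73 CPM). Prrx1 was found mainly in Epcam-low cells, at 1.33, 69.9 and 0.127 CPM. After thinning, 0.448% (0.0924 to 1.3) of double-positive and 16.1% (14.8 to 17.5) of Epcam-low cells had a Prrx1 UMI.

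**Figure D3:**
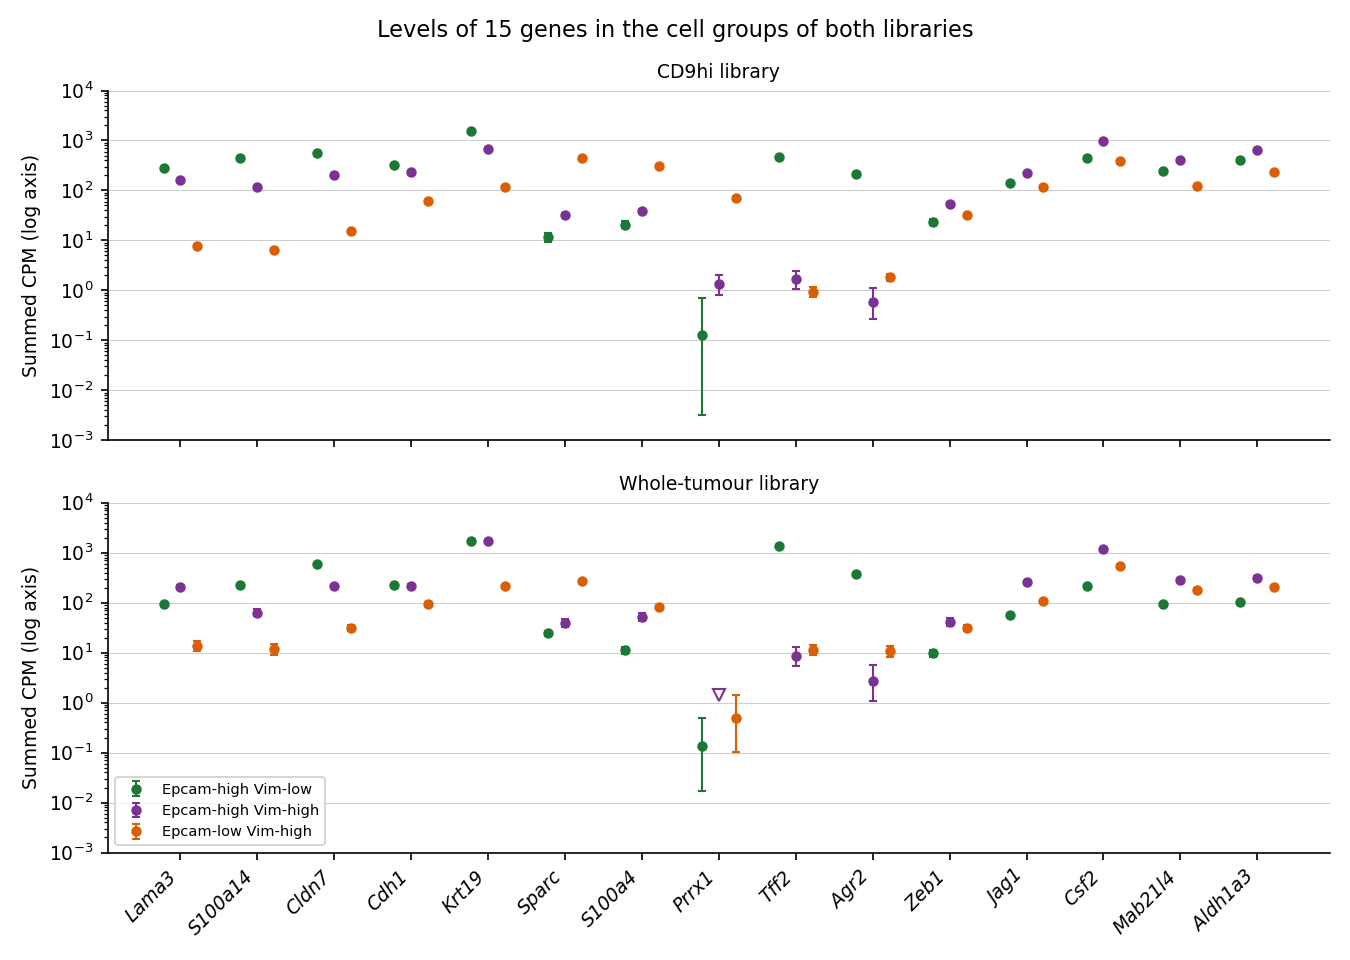
Summed CPM of 15 genes (log axis) in Vim-low (green), double-positive (purple) and Epcam-low cells (orange) of each library, with 95% exact Poisson intervals for counting error; the open triangle is the upper limit of a group with 0 UMIs. Purple points lie between the references for Cldn7 and Sparc in both libraries, near the lower reference for Prrx1, Tff2 and Agr2, and above both for Jag1, Csf2, Mab21l4 and Aldh1a3.

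Secreted gastric-type genes such as Tff2, Gkn3 and Agr2 were near absent from double-positive cells and abundant in Vim-low cells, the other group with high Epcam. Against Vim-low cells 13 of 14 measured classical genes were lower and 0 higher (median -3.44), as were 8 of 9 mucin and secretory genes (median -4.84). Of these, 8 classical and 6 mucin genes were under the minimum in double-positive cells and were measured only through the Vim-low cells, where they were high, so the filter itself fixed their direction. Tff2, a trefoil peptide of gastric mucus, was at 1.66, 0.938 and 463 CPM in double-positive, Epcam-low and Vim-low cells, Gkn3 at 0.664, 0.786 and 310.2 CPM and Agr2, a disulfide isomerase for mucins, at 0.597, 1.83 and 212 CPM. Reg1, an injury-induced secreted lectin of a multigene family whose reads can be shared, was at 1.19, 9.08 and 149 CPM. Not all genes of these lists were near absent. The aspartic protease gene Ctse was at 411, 119 and 949 CPM, Tspan8, the one classical gene not called, at 289, 193 and 367 CPM, and the secreted protease inhibitor gene Wfdc2 at 494, 103 and 1142 CPM. Tff2, Gkn3 and Agr2 were named for their role after their values were seen.

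Only 50 of 9481 measured genes (0.527%) were at least 1.5-fold above both references. The 10 highest of them at a mean of at least 50 CPM were Csf2, Ankrd1, Mab21l4, Chst2, Flrt3, Aldh1a3, Jag1, Ier3, Bhlhe40 and Pdlim4. Csf2, encoding the cytokine GM-CSF, led them, at 968 CPM in double-positive, 383 in Epcam-low and 436 in Vim-low cells, 2.53-fold and 2.22-fold. Its 10th percentile, median and 90th percentile over double-positive cells were 0, 604 and 2553 CPM, against 0, 0 and 1313 in Epcam-low cells, so the distributions overlapped widely. Aldh1a3, a retinoic acid synthase used as a marker of tumour-initiating cells, was at 649.7, 232 and 402 CPM, and Ankrd1, a YAP target, at 286, 161 and 128 CPM. With Epcam-low cells under the same limits 22 genes were above both, all of them among the 50, and with Epcam-low cells lacking a Prrx1 UMI, a choice made after seeing the data, 20 were, 19 of them among the 50. Of the 10 named, Chst2, Flrt3, Ier3, Bhlhe40 and Pdlim4 were above both under neither of these choices nor in the whole-tumour library. Flrt3 (179, 106 and 98.6 CPM) encodes a guidance and adhesion receptor, Chst2 (110.3, 62.6 and 64.4 CPM) a sulfotransferase, and Pdlim4 (483, 317 and 172 CPM) an actin-binding protein. In the whole-tumour library 333 of 9681 genes were above both (3.44%), and 19 were on both lists, 38.0% of the 50 and 5.71% of the 333.

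Jag1, the Notch ligand that the series is named for, was one of these 19. It was at 222 CPM (214 to 229) in double-positive, 119 CPM (117 to 122) in Epcam-low and 140.1 CPM (132 to 149) in Vim-low cells. The log2 ratios were 0.89 (0.83 to 0.95) and 0.66 (0.56 to 0.76), and the first was 0.60 under the same limits. In the whole-tumour library Jag1 was at 254, 106 and 55.7 CPM in the same order of groups. A Jag1 UMI was found in 53.9% (50.0 to 57.7) of thinned double-positive cells, 33.6% (32 to 35.3) of Epcam-low and 42.7% (37.7 to 47.9) of Vim-low cells. For comparison, 20 thinned cells of the library with macrophage markers had a Jag1 UMI in 15% (3.21 to 37.9) and a Cdh1 UMI in 10.0% (1.23 to 31.7), at a median of 14409 UMIs before thinning. The 24 such cells before thinning had a median doublet score of 0.0951, against 0.0536 in double-positive cells. Whether these UMIs came from free RNA or from doublets was not tested. Among the groups compared, double-positive cells had the highest Jag1 level in both libraries. Vim-high cells with Epcam of 1000 to 1500 CPM that met the further limits are in none of the groups. They had Jag1 at 206 CPM in the CD9hi and 256 CPM in the whole-tumour library, near the double-positive levels of 222 and 254 CPM.

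Ratios of the other Notch genes depended on which Epcam-low cells were compared. Of 17 measured Notch genes 5 were higher and 0 lower than in Epcam-low cells, and under the same limits 1 was higher and 1 lower; the median was 0.10, and -0.09 under the same limits. The target Hes1 was at 401, 247 and 368 CPM in double-positive, Epcam-low and Vim-low cells, and the feedback gene Nrarp at 30.2, 17.6 and 28.1 CPM. Both were over 1.5-fold above Epcam-low cells and level with Vim-low cells, and Hes1 had a log2 ratio of 0.42 and Nrarp of 0.47 over Epcam-low cells under the same limits. The receptors Notch1 (16.9, 20.1 and 15.8 CPM) and Notch2 (36.2, 35.6 and 32.5 CPM) and the DNA-binding partner Rbpj (49.7, 72.6 and 66.8 CPM) did not differ by 1.5-fold from either.

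Cd9 varied little within the library sorted on its protein, at 2614, 2357 and 2218 CPM in double-positive, Epcam-low and Vim-low cells. In the whole-tumour library its median over cells was 2253, 2723 and 838 CPM in the same order, so it was lower in Vim-low cells there. Of 20 measured tetraspanin genes and partners 2 were higher and 4 lower than in Epcam-low cells, beside 12.1% higher and 9.14% lower among all genes. Among them were Cd82 (106 against 62.4 CPM), higher, and Cd63 (897 against 1659 CPM), lower. Of 15 measured tumour-initiating markers 5 were higher and 4 lower. Prom1, encoding CD133, was at 41.1, 10.5 and 77.4 CPM and Cd24a at 282, 162 and 403 CPM, both between the references, and Cd44 at 989, 802 and 652 CPM. The 4 lower included Cd34 (0.465, 26.1 and 0 CPM) and Dclk1 (13.1, 22.4 and 13.6 CPM). Itgb3, an integrin subunit, was at 24.8, 12.2 and 16.3 CPM and was one of the 50 genes above both references. Markers in use for such cells thus stood on both sides of the Epcam-low level.

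Genes of secreted signals stood on both sides. Of 21 measured cytokine and chemokine genes 11 were higher and 7 lower than in Epcam-low cells (median 0.68), and 8 higher and 7 lower under the same limits (median 0.35). Besides Csf2, the inflammatory cytokine Tnf (49.6, 15.4 and 51.1 CPM) and the granulocyte factor Csf3 (14.9, 3.69 and 16.6 CPM) were higher than in Epcam-low cells and level with Vim-low cells. Ccl2, a monocyte chemoattractant, was lower (24.1, 95.5 and 4.83 CPM), as were the interferon-induced Cxcl10 (9.29, 42 and 39.1 CPM) and the stromal chemokine Cxcl12 (2.12, 15.1 and 2.16 CPM). Against Vim-low cells 4 of 17 were higher and 5 lower. Of 21 measured EGF family and ErbB genes 7 were higher and 1 lower, and under the same limits 2 and 3; Erbb3 was at 21, 5.33 and 42.6 CPM and Tgfa at 37, 16.6 and 46 CPM. Of 14 measured Wnt genes 5 were higher and 2 lower, led by Wnt7a (45.9, 8.61 and 54.9 CPM) and Wnt7b (189, 75 and 173 CPM). Vegfa, the angiogenic factor, was at 316, 118 and 252 CPM. Of 17 measured YAP targets 7 were higher and 2 lower, with Ccn2 at 328, 166 and 264 CPM and Nt5e, encoding CD73, at 354, 182 and 239 CPM. Of 23 measured matrix protease and inhibitor genes 2 were higher and 8 lower, beside 12.1% higher and 9.14% lower among all genes. Mmp3, a stromal protease, was at 0.332, 24.6 and 1.02 CPM, and Adam12, a membrane metalloprotease, at 27.1, 11.2 and 21.1 CPM.

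Of 21 measured proliferation genes, 0 were higher and 15 lower than in Epcam-low cells (median -1.05), and 15 were also lower under the same limits. Of the 21, 8 were under the minimum in double-positive cells and were measured only through the Epcam-low cells, and all 8 are among the 15. The mitotic genes Ccnb1 (0.863, 12.8 and 3.94 CPM in double-positive, Epcam-low and Vim-low cells), Ccnb2 (1.53, 20.2 and 6.61 CPM) and Cenpf (1.13, 10.6 and 6.48 CPM) were the most apart, while the replication genes Pcna (87.4, 79.8 and 93.6 CPM) and Mcm7 (38.1, 39.2 and 38.7 CPM) were not called. Against Vim-low cells 0 of 14 measured genes were higher and 1 lower (median -0.18). The list's median over Epcam-low cells moved to 0.00365 when Epcam-low cells with a Prrx1 UMI were left out, which kept 2136 of 3157 cells, and to -0.23 among cells of the middle range of depth. It was 0.13 over the members with a mean of at least 50 CPM. Of 27 measured glycolysis and hypoxia genes 3 were higher and 14 lower (median -0.68; -0.39 without cells with a Prrx1 UMI). Pdk1, a brake on mitochondrial pyruvate use, was at 2.65, 12.1 and 4.95 CPM and the lactate transporter gene Slc16a3 at 16, 48.8 and 9.91 CPM.

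Ribosomal protein genes had a median of -0.40 over Epcam-low cells, with 0 of 28 higher and 3 lower, and of -0.20 with 0 called under the same limits. Their share of the UMIs of the median cell was 13.5% in double-positive, 16.4% in Epcam-low and 14.2% in Vim-low cells. Interferon response genes were lower as a list than in Vim-low cells, while their median over Epcam-low cells did not reach 1.5-fold. Of 11 measured, 5 were lower and 0 higher than in Epcam-low cells (median -0.50), and 11 of 14 were lower and 0 higher than in Vim-low cells (median -1.49); 2 of the 11 and 5 of the 14 were under the minimum in double-positive cells. Ifit1 was at 1.06, 14.7 and 18.3 CPM in double-positive, Epcam-low and Vim-low cells, and Isg15 at 11.6, 33.7 and 35.6 CPM. In the whole-tumour library 2 of 6 measured interferon genes were higher and 1 lower than in Epcam-low cells (median 0.05). Of 6 measured antigen presentation genes 2 were higher and 1 lower than in Epcam-low cells, and 0 of 6 were higher and 3 lower than in Vim-low cells (median -0.49). The class I gene H2-K1 was at 142, 70.6 and 233 CPM and B2m at 299, 426 and 227 CPM. Of 13 measured p53 targets 4 were higher and 0 lower than in Epcam-low cells, led by the desmosomal Perp (149.9, 48.5 and 218 CPM). Trp53 itself was at 232, 234 and 199 CPM, and its 3′ reads need not lie in the deleted part.

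Epithelial genes were graded by the level of Epcam within the Vim-high cells, and Jag1 less so. Cells with high Vim that met the 3 further limits were placed in 5 bands of Epcam, under 1000, 1000 to 1500, 1500 to 2500, 2500 to 4000 and at least 4000 CPM, with 2416, 411, 340, 231 and 103 cells; the last 3 bands are the double-positive cells. Over these bands Lama3 was at 9.38, 41.9, 98.6, 182 and 328 CPM and S100a14 at 7.97, 29, 58.1, 135 and 288 CPM. Cdh1 was at 75.6, 157, 210.4, 256 and 302 CPM, with its largest step between the lowest bands. Sparc was at 406, 51.4, 46.8, 19.3 and 15 CPM and S100a4 at 258, 42.9, 41, 41.4 and 22.8 CPM, so both were already low in the band just under the Epcam limit. Tnfaip6, a hyaluronan-binding matrix gene of inflammation, was at 299, 208, 109, 40.8 and 39.2 CPM and dropped later. Vim was at 6002, 5353, 4373, 3659 and 3189 CPM and Zeb1 at 37.8, 46.6, 54, 58.1 and 47.8 CPM. Jag1 was at 147, 206, 198, 227 and 292 CPM and Csf2 at 482, 921, 920.3, 1116 and 795 CPM. Jag1 was thus at 206 and 198 CPM in the bands on either side of the Epcam limit, although in the narrower windows at the limit given above it was higher just outside than just inside. Csf2 was highest in the fourth band, not in the cells with the most Epcam.

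**Figure D4:**
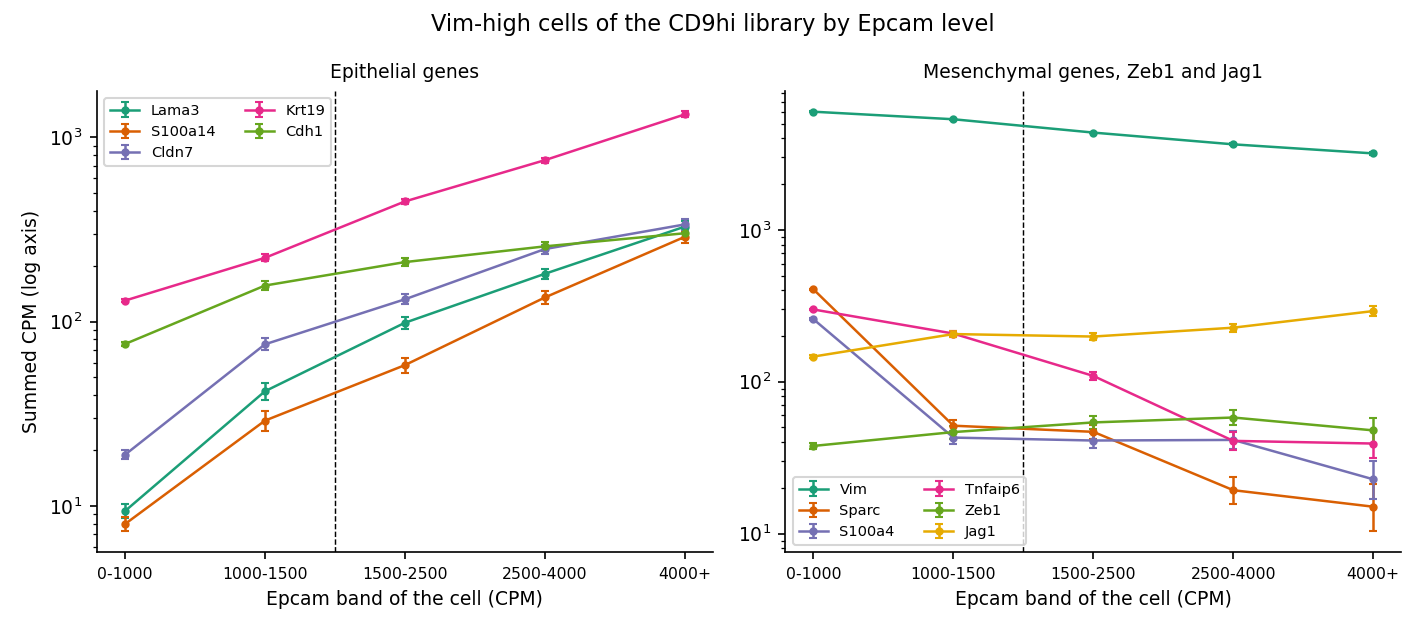
Summed CPM (log axis) of 11 genes in Vim-high CD9hi cells by Epcam band, with 95% exact Poisson intervals; the dashed line is the Epcam limit of 1500 CPM and double-positive cells lie to its right. Lama3 goes from 9.38 to 328 CPM, Sparc from 406 to 15 CPM, and Zeb1 stays between 37.8 and 58.1 CPM.

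Within the double-positive cells, correlations over the 670 thinned cells are descriptions, since all points share 1 library and 1 depth. Spearman's rho was 0.37 between Lama3 and Lamb3, chains of the same laminin. It was -0.22 between Epcam and Vim, both of which chose the cells, 0.26 between Epcam and Krt7 and 0.23 between Jag1 and Csf2. Epcam and Jag1 (0.09) and Vim and Jag1 (0.01) were near 0.

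Doublet scores were higher in double-positive cells, as given above. An equal mix of RNA from the reference groups would give the midpoint of their levels, so both are set side by side for some picked genes. Unequal mixes, or mixes with a part of a reference group, would give other levels. Cdh1, at 239 CPM, and Krt7, at 2341 CPM, were above their midpoints of 191 and 1739 CPM. Lama3, at 159.9 CPM, was also above its midpoint of 145. Other genes were under theirs. Sparc was at 32.9 CPM beside a midpoint of 227, Prrx1 at 1.33 beside 35, Tff2 at 1.66 beside 232 and Agr2 at 0.597 beside 107. Jag1, at 222 CPM, was above its midpoint of 129.8 and above both references. Removal of the highest doublet scores left 624 double-positive cells. Then 1202 genes were higher and 882 lower than in Epcam-low cells. The log2 ratio of Jag1 was 0.95 over Epcam-low and 0.72 over Vim-low cells. The automatic threshold on these scores marked only 1 cell of the CD9hi library. The part of doublets among the double-positive cells was not tested.

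Defining markers of most other cell types were near 0 in the double-positive cells. The 13 fibroblast markers summed to 6.24 CPM, all 13 of them under 5 CPM, against 237 CPM in Epcam-low and 4.70 CPM in Vim-low cells. The 11 lymphoid markers summed to 2.06 CPM and the 17 acinar markers to 15.7 CPM. Most of the rest came from single genes. The 13 macrophage markers summed to 73.4 CPM, 82.1 CPM and 103 CPM in double-positive, Epcam-low and Vim-low cells, with 10, 8 and 10 of them under 5 CPM, and the 11 endothelial markers to 59.0, 91.5 and 40.3 CPM. In double-positive cells Cd14 gave 38.0 CPM of the macrophage and Flt1 51.8 CPM of the endothelial sum. Of the 6 mesothelial markers Krt19 and Msln were high, with Msln at 565, 279 and 542 CPM, and the other 4 were under 5 CPM. The fibroblast and pericyte markers were higher in the Epcam-low reference than in the double-positive cells, at 237 and 118 CPM against 6.24 and 5.71 CPM. Over Epcam-low cells both sums had a median of 0 CPM, and 4.88% and 2.76% of the cells passed 1000 CPM. The 10 ductal markers, by contrast, summed to 9786 CPM in double-positive, 7904 CPM in Epcam-low and 13314 CPM in Vim-low cells, with Krt7 and Spp1 among them. Spp1 gave 5361, 6800 and 6498 CPM of these sums and was thus lowest in double-positive cells. In double-positive cells 3 of the 10 were under 5 CPM. Of 7 measured ductal markers 5 were higher and 0 lower than in Epcam-low cells.

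The same rule in the whole-tumour library gave a second set of 144 double-positive cells beside 317 Epcam-low and 788 Vim-low cells. Of 9331 measured genes 1044 were higher (11.2%) and 672 lower (7.2%) than in the Epcam-low cells. Of the 1077 genes higher in the CD9hi comparison and measured in both libraries, 425 (39.5%) were higher and 32 (2.97%) lower in the whole tumour, where 10.2% of genes measured in both were higher. Of 679 lower genes, 236 (34.8%) were lower and 35 (5.15%) higher, beside 6.70% lower. Junction genes followed the CD9hi library, with 11 of 14 adhesion, 11 of 15 tight junction, 13 of 17 polarity and 6 of 8 keratin genes higher. Of these measured genes, 4 adhesion, 5 tight junction, 2 polarity and 2 keratin genes were under the minimum in Epcam-low cells. Their direction was thus fixed by the filter. Epithelial transcription and splicing genes did not follow the CD9hi library, with 4 of 14 higher and 4 lower (median 0.11, beside 0.89). Of 9 classical genes 1 was higher and 5 lower (median -1.08, beside 0.58). Of 10 mucin and secretory genes 0 were higher and 7 lower (median -1.68, beside 0.89). Of these, 4 classical and 2 mucin genes were under the minimum in double-positive cells. Zeb1 was not called (log2 ratio 0.41). Cldn7 was at 212, 31.6 and 599 CPM and Lama3 at 204, 13.5 and 94.3 CPM in double-positive, Epcam-low and Vim-low cells, so Lama3 was here above both references. Of 21 measured mesenchymal genes 4 were higher and 11 lower than in Epcam-low cells (median -0.68, beside -2.40 in the CD9hi library). Tnc was higher (1575, 644 and 151 CPM), as was Loxl2 (77.7, 46.1 and 9.23 CPM), a collagen crosslinking enzyme that was lower in the CD9hi comparison (6.24, 34.1 and 1.02 CPM). Classical genes were again low against Vim-low cells, with 16 of 16 measured lower (median -4.53, beside 0.06 over all measured genes). Of the 16, 11 were measured only through the Vim-low cells, and Tff2 was at 8.51, 11.4 and 1374 CPM. The share of all genes lower was not counted for this comparison. Proliferation genes were not apart from Epcam-low cells, with 0 of 10 higher and 1 lower. Csf2 was at 1202, 549.7 and 212 CPM and Aldh1a3 at 312, 202 and 105 CPM, both above both references, as in the CD9hi library.

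**Figure D5:**
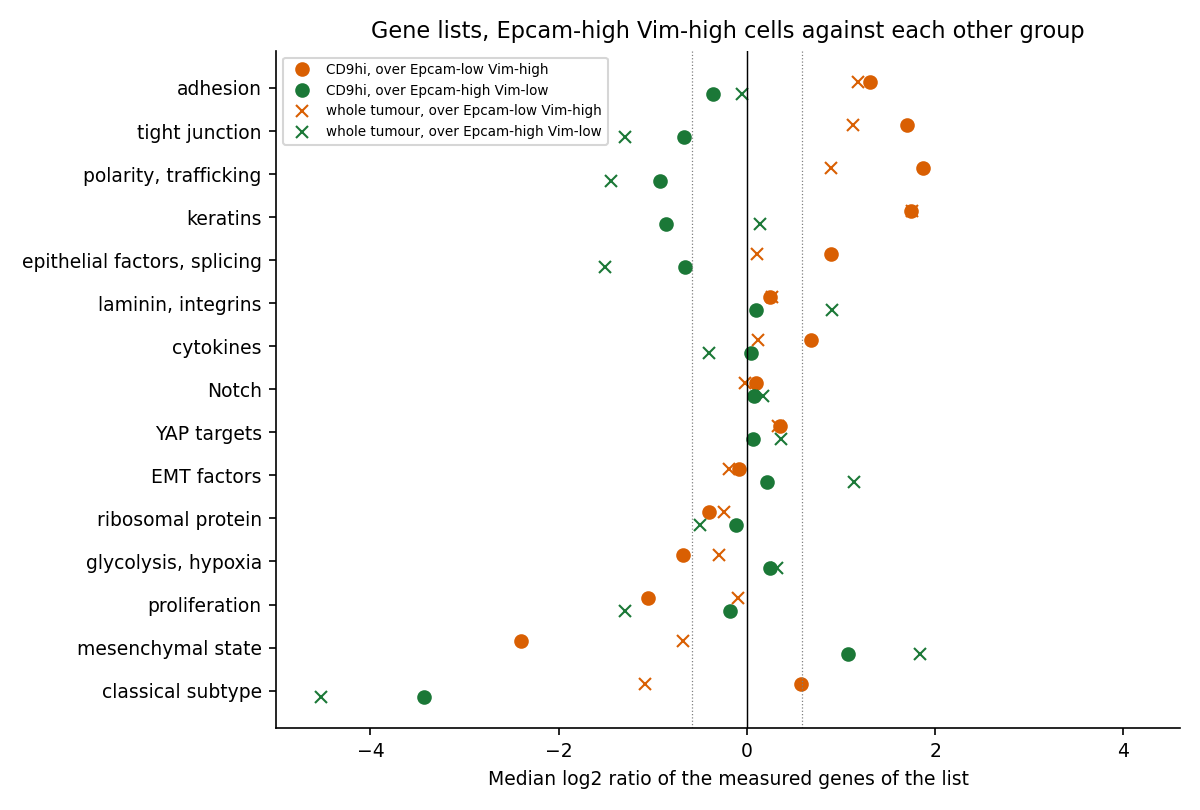
Median log2 ratio of the measured genes of 15 lists in double-positive cells over Epcam-low (orange) and Vim-low cells (green), in the CD9hi (circles) and whole-tumour library (crosses); dotted lines mark 1.5-fold. Junction and keratin lists lie right of 0 over Epcam-low cells in both libraries, the classical list lies far left of 0 over Vim-low cells, and the mesenchymal list lies left over Epcam-low (-2.40 in CD9hi) and right over Vim-low cells (1.08).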

How the data were processed

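Live cells from pancreatic tumours were profiled as 2 droplet libraries, a whole-tumour and a CD9hi sorted one. Per the file headers, the deposited matrices hold whole-number counts of UMIs per gene and barcode, not normalized, for 55361 features of GRCm39. The submitters' processing notes name Cell Ranger 7.0.0, and the matrix headers name 6.1.2. Of 747 listed genes, 6 could not be matched.

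Barcodes under 500 genes or 1000 UMIs, or over 20% mitochondrial UMIs, were left out. Counts were summed over the cells of a group and given as CPM with exact Poisson intervals. Log2 ratios used a prior of 0.5 counts and exact conditional binomial intervals. Shares have exact Clopper-Pearson intervals. All are at 95% and cover counting error only. With 1 library per group nothing was tested. Depth per library stands in the report.

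Doublets were kept. Scrublet's automatic threshold marked 1 CD9hi cell (0.0196%), which is too few to have worked, so removal of the highest scores (4.07% in the CD9hi library, 2.04% in the whole tumour) served as an alternative. The genes named were the proposed marks, the check genes, the 15 highest and 15 lowest against Epcam-low cells, the 10 furthest above both references, and up to 3 genes at each end of each of 44 lists. Tff2, Gkn3, Agr2, Zeb2, Hes1, Notch2, Itga3, Itga6, Itgb4, Grhl2, Cd44 and Loxl2 were added for their roles after their values were seen. The cells and the lists were chosen with earlier results of these data known.

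Alternatives changed the limits, the cell filter, doublets, thinning, scaling, the minimum CPM, depth and the fold. Epcam-low cells with no Prrx1 UMI, or low in markers of other cell types, were chosen after seeing the data. An allele of the genotype and a listed gene are not reported here. Promoter windows came from RefSeq (GRCm38.p6). The scripts were tested on simulated data. Python 3.11.15, scanpy 1.11.5, numpy 2.4.6, scipy 1.17.1 and pandas 2.3.3 were used.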

Additional observations from a re-analysis of the deposited data

Results flagged for a closer look

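For 6 genes the difference between double-positive and Epcam-low cells passed 1.5-fold in opposite directions in the 2 libraries, and the difference between the libraries was not tested. Ccl2, a monocyte chemoattractant, had a log2 ratio of -1.99 in the CD9hi and 0.96 in the whole-tumour library. The collagen crosslinker Loxl2 had ratios of -2.45 and 0.75 in the same order. The keratin gene Krt23 had 0.86 and -1.22, and S100b, a calcium-binding protein gene, had 1.49 and -0.83. Car9, a hypoxia-induced carbonic anhydrase, had 0.75 and -0.74, and the lactate transporter gene Slc16a3 had -1.61 and 0.70.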

How the results depend on the processing

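All limits are those of 1 library per group: intervals cover counting error, no difference between animals can be measured, and the sort cannot be told apart from the library. Genes of few UMIs are limited by depth. No paired analysis was possible because each group had 1 library. For changes not shown by the alternative's own construction (fewer cells or genes, another limit), the cause was not tested.

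With Epcam and Vim minimums of 2000 CPM, double-positive cells were 7.66% of the CD9hi and 3.57% of the whole-tumour cells, and with 1200 CPM 18.2% and 8.0%. At 1200 CPM the median log2 ratio over Epcam-low cells was 0.61 for classical and 0.56 for cytokine genes, and 0.14 for classical genes in the whole tumour, a change of sign. Without a cell filter the whole-tumour share was 4.67%. Among cells of the middle range of depth the shares were 16.6% and 7.20%. With the highest doublet scores removed the classical median was 0.59.

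Against Epcam-low cells under the same 3 limits, 647 genes were higher and 22 were above both references. List medians were then 0.44 for epithelial transcription and splicing, 0.58 for mucins, -0.78 for interferon response and 0.35 for cytokines. Against Epcam-low cells with no Prrx1 UMI, 651 genes were higher, 405 lower and 20 above both, and the medians were 0.28 for mucins, 0.00365 for proliferation, a change of sign, -0.39 for glycolysis and 0.0948 for cytokines. Against Epcam-low cells low in other cell type markers, Cd74 had a log2 ratio of 0.81 and Lyz2 of 2.93, both reversed.

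With thinned counts the medians were -0.57 for glycolysis, -0.77 for interferon and 0.40 for cytokines. Against Vim-low cells 609 genes were then higher and 1070.0 lower, and 114 were above both. With the rule applied to thinned cells the medians were -0.51 for glycolysis and 0.23 for cytokines, 648 genes were higher and 1119 lower than in Vim-low cells, 126 were above both, and Creb3l1 had a reversed ratio of 0.22 over Vim-low cells. In the whole tumour thinned counts gave 1656 higher, 1077 lower and 636 above both, and the rule on thinned cells 1707, 1089 and 690.0.

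With the mean of per-cell CPM the medians were -0.62 for interferon and 0.34 for cytokines, and with trimmed mean scaling -0.59 for interferon. With a mean of at least 50 CPM 273 genes were higher and 147 lower than in Epcam-low cells, 81 higher and 99 lower than in Vim-low cells, and 11 above both. Medians were 0.40 for epithelial transcription and splicing, 1.18 for classical, 1.22 for basal (from -0.29, a change of sign), 1.33 for Wnt, 0.68 for YAP, -0.36 for glycolysis and, reversed, 0.13 for proliferation. In the whole tumour 176 were higher, 108 lower and 80.0 above both. With no minimum CPM 5029 genes were higher and 5689 lower than in Epcam-low cells, 2591 higher and 4402 lower than in Vim-low cells, and 1752 above both. Medians were 0.53 for mucins, -1.34 for interferon, -1.07 for antigen presentation (from 0.28, a change of sign) and 0.21 for cytokines. In the whole tumour the counts were 3570.0, 3399 and 2055.

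Among cells of the middle range of depth the medians were 0.50 for epithelial transcription and splicing, -0.23 for proliferation, -0.48 for glycolysis, -1.14 for interferon and 0.41 for cytokines. There the ratios over Epcam-low cells of Reg1 (1.31), Car9 (-0.00739) and Ctrb1 (1.17), and over Vim-low cells of Creb3l1 (1.12) and Ctrb1 (1.03), were reversed. At a fold of 2, 398 genes were higher and 419 lower than in Epcam-low cells, 95 higher and 307 lower than in Vim-low cells, and 1 above both. In the whole tumour these were 328 higher, 284 lower and 80.0 above both.

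Of 2937 ratios of named genes over Epcam-low cells recomputed in the CD9hi library, 2749 stayed on their side of 1.5-fold, 118 went under it, 65 passed it and 5 changed sign after passing it in the report. Ratios under 1.5-fold that changed sign and stayed under it are counted among the 2749. Of 450 recomputed list medians 415 stayed on their side, sign changes under 1.5-fold included.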
